A study of Mus musculus with 6 samples.

Results

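The nuclear-encoded genes of oxidative phosphorylation were followed through single-cell RNA sequencing of mouse ventricles. Members were chosen by symbol: every listed gene whose symbol begins with Ndufa, Ndufb, Ndufc, Ndufs, Ndufv, Uqcr, Cox4 to Cox8 or Atp5, or is Sdha, Sdhb, Sdhc or Sdhd. Of 32285 genes in the count matrices, 94 matched. One of them, Ndufb1-ps, carries a pseudogene symbol and was left out by the rule, and 91 of the other 93 had at least 200 UMIs (unique molecular identifiers, 1 per captured transcript) over the 6 libraries and were used. Of the genes used, Cox6b2 had the fewest UMIs, 880, well over that minimum, and under it lay Cox7b2 with 1 UMI and Cox8c with 0. The 91 genes lie on 19 chromosomes and fall into 36 genes of complex I, 4 of complex II, 8 of complex III, 18 of complex IV, 17 of complex V and 8 assembly factors of complex I (Ndufaf1 to Ndufaf8), which share the prefix but are not subunits.

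The study sampled live cells other than cardiomyocytes from male mice aged 8 to 12 weeks, sorted as positive for Calcein-AM and negative for DAPI after digestion with thermolysin and papain and passage through 300 and 40 µm meshes, the finer of which was meant to hold back cardiomyocytes. Wild-type mice (WT, strain C57BL/6JRj) and Trpm4 knockout mice (KO, strain B6.Cg-Trpm4tm1.2-PG) had either a sham operation, with cells taken at 24 h, or a ligation of the LAD coronary artery, the standard model of myocardial infarction, with cells taken 24 h or 72 h later. Every group is a single library that pools 4 mice, so 6 libraries stand for 6 groups. No group has a replicate, so no test or p-value was computed between groups, and every interval on a ratio covers counting error only.

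Oxidative phosphorylation passes electrons from NADH through complex I, or from succinate through complex II, to complex III and on to complex IV, which reduces oxygen. Complexes I, III and IV pump protons across the inner mitochondrial membrane, and complex V uses the gradient to make ATP. Most subunits are encoded in the nucleus and a few core ones in mitochondrial DNA. Cardiomyocytes are rich in all of them, whereas neutrophils are known to rely largely on glycolysis.

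Promoters are described first, and no motif was set against any change in level. The transcription factor NRF1 is a known regulator of respiratory chain genes and binds a palindrome. The RefSeq promoter table (build GRCm38.p6, 250 bases before to 50 after each start) held 75 of the 91 members. Members without an entry included the isoforms Cox4i2, Cox6a2 and Ndufa4l2. The exact NRF1 palindrome, which reads the same on both strands, was present in 7 of 75 members (9.33%: Atp5g2, Atp5k, Cox6a1, Ndufa11, Ndufaf4, Ndufaf5 and Uqcrc1) and in 290 of 27025 genes in the table (1.07%). The letters AAGATGGC, a core recognised by YY1, were present on either strand in 11 members (14.7%) and in 3.19% of all genes. The ETS core CCGGAAGT was present in 5 members (6.67%) against 4.31% of all genes, the hypoxia response core ACGTG in 18 (24.0%) against 21.8%, and the RBPJ core GTGGGAA in 5 (6.67%) against 7.25%. None of the 5 motifs contains another. The genes in the table were not limited to those detected in these cells. A match is a description of these letters and not evidence of binding. The 3 promoters below are those of an F0 subunit gene of complex V, a complex I assembly factor and the general form of a complex IV subunit, and the capitals mark the NRF1 palindrome.
Atp5g2, 250 bases before the start, chr15:102671048-102671297, minus strand: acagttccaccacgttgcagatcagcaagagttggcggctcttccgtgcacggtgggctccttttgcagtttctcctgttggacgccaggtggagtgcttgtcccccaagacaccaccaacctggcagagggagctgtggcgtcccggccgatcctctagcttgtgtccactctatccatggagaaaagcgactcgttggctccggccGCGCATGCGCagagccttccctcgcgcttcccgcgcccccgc
Ndufaf4, 250 bases before the start, chr4:24897833-24898082, plus strand: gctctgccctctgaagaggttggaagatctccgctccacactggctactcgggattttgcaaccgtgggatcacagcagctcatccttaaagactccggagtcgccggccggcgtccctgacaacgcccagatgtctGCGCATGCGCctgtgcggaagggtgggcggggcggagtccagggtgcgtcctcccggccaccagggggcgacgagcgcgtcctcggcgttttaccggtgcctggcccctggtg
Cox6a1, 250 bases before the start, chr5:115348959-115349208, minus strand: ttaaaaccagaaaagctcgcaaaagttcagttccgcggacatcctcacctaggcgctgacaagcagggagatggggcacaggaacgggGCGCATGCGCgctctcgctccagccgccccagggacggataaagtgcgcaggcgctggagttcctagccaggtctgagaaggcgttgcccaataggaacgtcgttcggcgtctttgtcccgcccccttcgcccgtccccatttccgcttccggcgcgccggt
The palindrome began 42 bases before the RefSeq start of Atp5g2, 113 before that of Ndufaf4 and 162 before that of Cox6a1. In GENCODE M21 Atp5g2 spans chr15:102662864-102672352, so its printed stretch lies inside the gene as annotated there and other starts lie further out.

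The libraries held 3625 to 7286 deposited cell barcodes and 20995280 to 45649061 UMIs, and 3365 to 6824 cells per library were kept. The KO library at 72 h after ligation stood apart, with a median of 1351 UMIs per kept cell against 3076 to 8011 in the others, and 53.9% of its cells had under 1500 UMIs. Pairs of libraries shared 3 to 14 cell barcodes. Trpm4 itself was sparse at 2.56 to 8.48 CPM (a gene's UMIs scaled to the same total in every class and library) in all kept cells, lower in KO than in WT at each of the 3 conditions but present in all 6 libraries. Since the deleted part of Trpm4 is not given in the sources used here, these 3′ UMIs do not check the genotype. Cells were clustered without the members, and 32 of 36 clusters were named from marker genes, so classes are called "like" a cell type. The unnamed clusters held 197 to 591 cells per library and 2179 in the KO library at 72 h.

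Cell classes differed in how much of their transcriptome was given to the 91 genes. Levels are UMIs summed over the cells of a class and library, as a percentage of all UMIs of that class or in CPM. Cardiomyocyte-like cells had by far the largest share, with 14.5% in KO sham, 13.7% in KO at 24 h, 11.04% in WT at 72 h and 8.48% in KO at 72 h. These cells passed the mesh and the sort in small numbers (31, 61, 13, 69, 56 and 185 cells in WT sham, KO sham, WT 24 h, KO 24 h, WT 72 h and KO 72 h), and no level is given for a library with fewer than 50. In the 4 libraries with a level, the 12 cardiomyocyte markers took 7.54%, 6.14%, 6.19% and 3.51% of the UMIs of the class, and 32.8%, 43.5%, 42.9% and 72.4% of its cells had under 1500 UMIs. The KO library at 72 h was thus lowest in the members, in the markers and in depth, whose part in the shares was not tested. Smooth muscle-like cells gave 4.82% in WT sham, 4.84% in KO sham, 3.599% in WT at 24 h and 4.63% in KO at 24 h. Pericyte-like cells gave 3.01% to 3.69% in 5 libraries. Neither mural class overlapped with the main non-mural classes below.

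Monocyte/macrophage-like cells gave 2.57%, 2.43%, 2.37%, 2.74%, 2.88% and 2.83% in WT sham, KO sham, WT 24 h, KO 24 h, WT 72 h and KO 72 h. Fibroblast-like cells gave 2.24%, 2.24%, 2.15%, 2.52%, 2.77% and 2.69% in the same order, and endothelial-like cells 2.20%, 2.20%, 2.28%, 2.53%, 2.82% and 2.84%. Neutrophil-like cells gave 1.06%, 0.966%, 0.775%, 0.908%, 2.20% and 2.24%. In these cells the 4 values from sham and 24 h lay below every value of the other 3 main classes, and the 2 values from 72 h reached the lower end of their range. A low share was not particular to neutrophil-like cells. Platelet-like cells gave 1.18% to 1.56%, B-like cells 1.68% to 1.96% and T-like cells 1.80% to 2.53%, each in 4 libraries. The platelet-like and B-like ranges also lay below the other 3 main classes. At 72 h B-like cells, with 1.96% in WT and 1.95% in KO, were below neutrophil-like cells.

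**Figure D1:**
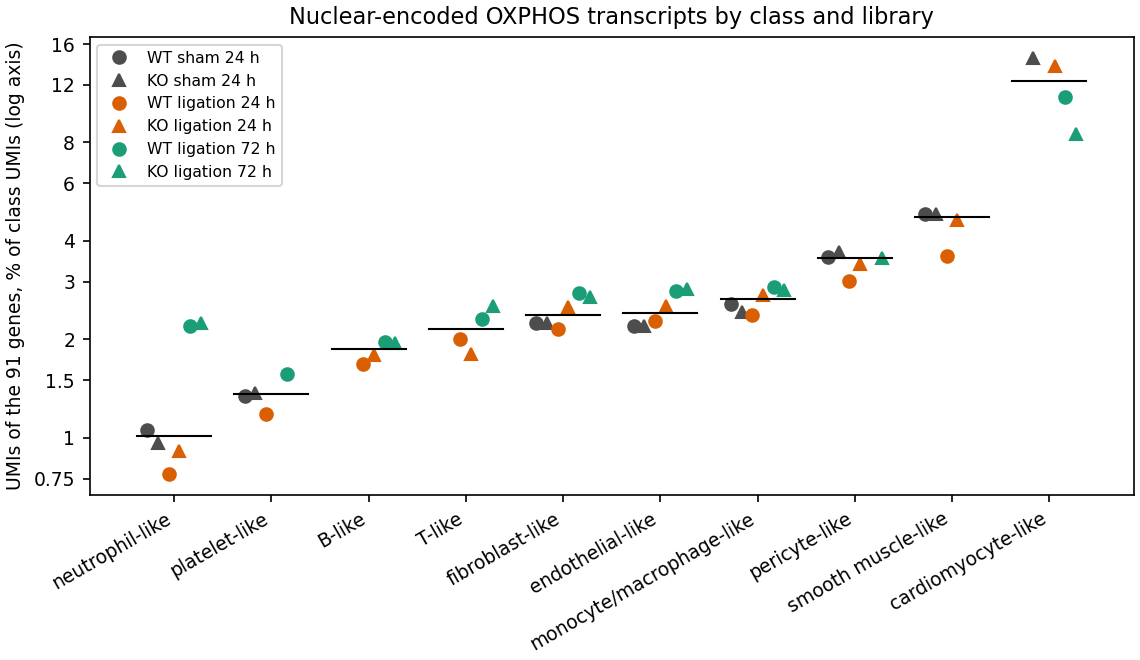
Share of UMIs from the 91 members (y axis, percent, log scale) in each class with a level in at least 4 libraries, 1 point per library, circles for WT and triangles for KO, with the median as a bar. Neutrophil-like cells lie between 0.775% and 1.06% in sham and at 24 h and at 2.20% and 2.24% at 72 h, and cardiomyocyte-like cells lie highest, from 8.48% to 14.5%.

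The 6 libraries allowed a test between classes, pairing the classes within a library. Over 6 libraries the members' share was 1.36% ± 0.674 (SD, n = 6) in neutrophil-like, 2.48% ± 0.299 in endothelial-like, 2.43% ± 0.258 in fibroblast-like and 2.64% ± 0.211 in monocyte/macrophage-like cells. An exact two-sided sign-flip permutation test over the 6 libraries, adjusted by Benjamini-Hochberg over 6 pairs of classes, gave p = 0.046875 for each of the 3 comparisons with neutrophil-like cells, which were lower in 6 of 6 libraries. The mean fold was 1.996 for endothelial-like, 1.96 for fibroblast-like and 2.13 for monocyte/macrophage-like cells over neutrophil-like cells. Fibroblast-like cells were below monocyte/macrophage-like cells in 6 of 6 libraries by a mean factor of 0.921 (the same adjusted exact p = 0.046875). Endothelial-like cells were below monocyte/macrophage-like cells in 5 of 6 (factor 0.937, adjusted exact p = 0.075) and differed from fibroblast-like cells by a mean factor of 1.02 (adjusted exact p = 0.28125). The unadjusted 0.03125 is the smallest p that 6 libraries can give. The 6 libraries span different conditions and are not replicates of 1 group. Without the KO library at 72 h the smallest possible p is 0.0625 and no pair can pass, and the fold over neutrophil-like cells was then 2.19, 2.17 and 2.37 for endothelial-like, fibroblast-like and monocyte/macrophage-like cells, still in 5 of 5 libraries.

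The deficit in neutrophil-like cells spanned the chain. Of the 91 members, 84 (92.3%) had their lowest median CPM of the 4 main classes there, against 53.7% of 13087 genes with at least 200 UMIs. Monocyte/macrophage-like cells held the highest level of 38 members, fibroblast-like cells of 31, endothelial-like cells of 21 and neutrophil-like cells of 1. That one was Cox8a, the general form of a small complex IV subunit, with 1118, 1107, 1139, 1177, 1769 and 1740 CPM in neutrophil-like cells in the library order above, and with 868 to 1091 CPM in monocyte/macrophage-like cells. The ranges did not overlap. Per gene, the median ratio of the highest to the lowest of the 4 classes was 4.05, and 13 members (14.3%) had a ratio of at least 10. Over the 13087 genes the median ratio was larger, 6.75, and 42.9% had a ratio of at least 10 (a lowest median of 0 counted among these). Among these were Ndufa5, an accessory subunit of complex I (median 244 CPM in fibroblast-like and 5.62 in neutrophil-like cells), Ndufc2, another accessory subunit (314 CPM in endothelial-like, 13.7 in neutrophil-like cells) and Atp5g1, 1 of 3 genes for the c subunit of the complex V rotor (508 CPM in monocyte/macrophage-like, 42.8 in neutrophil-like cells). Ndufaf4, an assembly factor of complex I, had a median of 61.1 CPM in fibroblast-like cells and 0.928 in neutrophil-like cells.

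By complex, the fold of monocyte/macrophage-like over neutrophil-like cells was 2.26 for complex I, 2.15 for complex II, 2.46 for complex III, 1.82 for complex IV and 2.27 for complex V, each higher in 6 of 6 libraries. Complex IV had the smallest fold against all 3 other main classes. Monocyte/macrophage-like cells exceeded endothelial-like cells in 6 of 6 libraries for complexes IV and V (endothelial-like over monocyte/macrophage-like 0.896 and 0.851) but not for complex I, where the mean factor was 1.06 and endothelial-like cells were higher in 5 of 6. Fibroblast-like cells had the highest assembly factor share of the 4, 1.48 times that of monocyte/macrophage-like cells and higher in 6 of 6 libraries. These folds by complex were not tested.

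The mitochondrially encoded subunits ranked the classes differently. Their 13 genes took 10.1%, 10.3%, 6.21%, 7.07%, 4.77% and 3.56% of UMIs in endothelial-like cells in the library order above, but 1.51% to 1.98% in monocyte/macrophage-like and 0.287% to 0.740% in neutrophil-like cells. Endothelial-like cells thus exceeded monocyte/macrophage-like cells by a mean fold of 3.68 in the mitochondrially encoded subunits. In the nuclear-encoded ones their mean factor was 0.937, and they were lower in 5 of 6 libraries. Mitochondrially encoded UMIs are part of the total, so a larger share of them lowers the nuclear-encoded share by construction. How much of the factor this accounts for is not given here. Cardiomyocyte-like cells had 0.700% to 5.11%. Cells over 20% mitochondrial UMIs had been left out, 39 to 420 barcodes per library, in which the endothelial gene Fabp4 had 18555 to 32920 CPM against 685 to 12517 in kept cells. A list of cardiomyocyte genes had 585 to 2682 CPM in them against 423 to 1028 in kept cells, and was higher in every library. The shares above are therefore those of cells at or under 20% only.

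Several complex IV subunits have alternative isoforms, and these separated the classes most sharply. Ndufa4l2 (chr10:127514967-127517154, plus strand; build mm10, as are all gene positions here, from GENCODE M21) is a hypoxia-responsive paralog of Ndufa4, which is now placed in complex IV, and Cox4i2 (chr2:152754173-152765037, plus strand) is the alternative form of Cox4i1 known from lung and vascular muscle. Since UMIs are read at the 3′ end, the share of an isoform is followed across classes and not taken as a molar ratio. In pericyte-like cells Ndufa4l2 had 3109, 3041, 1821, 2511 and 776.7 CPM in WT sham, KO sham, WT 24 h, KO 24 h and KO 72 h. It made up 99.1%, 95.6%, 91.6%, 96.9% and 65.8% of the UMIs of Ndufa4l2 and Ndufa4 in these libraries. The KO library at 72 h was the low one in both measures. In smooth muscle-like cells Ndufa4l2 had 1187, 1234, 854.7 and 1329 CPM in WT sham, KO sham, WT 24 h and KO 24 h, which was 59.2% to 67.0% of the pair. Fibroblast-like cells formed an intermediate step with 89.1 to 184 CPM and 11.6% to 19.9%, and none of these 3 ranges of CPM reached those of monocyte/macrophage-like cells (0.487 to 8.33 CPM) or neutrophil-like cells (0.479 to 2.56 CPM). The pericyte-like and smooth muscle-like ranges overlapped through the KO library at 72 h.

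Cox4i2 followed the same order. Pericyte-like cells had 1603, 1619, 1116, 1579 and 520.4 CPM in the 5 libraries, or 69.1%, 73.1%, 63.4%, 73.2% and 39.1% of Cox4i2 and Cox4i1 UMIs. Smooth muscle-like cells had 578.8 to 878.0 CPM (43.5% to 49.7%), fibroblast-like cells 11.4 to 47.2 CPM and endothelial-like cells 6.43 to 24.3 CPM. The low pericyte-like values at 72 h in KO came with another makeup of the class: 355 of its 376 cells were in a cluster with a median of 900 UMIs whose 10 leading genes held 2 pericyte markers (Rgs5 and Kcnj8) and 2 smooth muscle markers (Acta2 and Tagln). There Kcnj8 had 374 CPM and Ndufa4 465, against 2747 and 64.8 in the other pericyte-like cluster of that library, and Ndufa4l2 had 532.5 and Cox4i2 374.3 CPM, while the 21 cells in the cluster that held most pericyte-like cells of the other libraries had 2138 and 1334 CPM. In that second cluster the other 5 libraries had 1990 to 3438 CPM of Ndufa4l2 and 1036 to 1814 CPM of Cox4i2.

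In endothelial-like cells Ndufa4l2 stood at 5.19, 4.75, 5.13 and 4.51 CPM in WT sham, KO sham, WT 24 h and KO 24 h, and at 27.98 and 27.31 CPM in WT and KO at 72 h, from 10 to 58 UMIs per library. Both values at 72 h lay above all others. The ratio of 72 h to 24 h was 5.45 in WT. In KO the 44 UMIs of the pair were under the minimum of 50 set for a comparison. Cox4i2, the other mural isoform, had 8.90 and 6.43 CPM at 72 h against 10.9 and 22.1 at 24 h. These levels compare different clusters, since the cluster led by Ctla2a and Tm4sf1 held 3.07%, 2.61%, 24.5%, 20.97%, 36.02% and 68.0% of endothelial-like cells in the library order above. In that cluster Ndufa4l2 had 8.89, 7.73, 3.99, 1.85, 44.9 and 34.6 CPM in the library order above, while in the cluster led by Fabp4 and Aqp1 it had 0 to 8.19 CPM, and in the cluster numbered 24 it had 22.7 to 34.0 CPM in the 3 libraries with 50 cells. Most of Cox4i2 was in the cluster led by Rbp7 and Cxcl12, with 61.8, 43.5, 22.3 and 60.0 CPM in sham and at 24 h and under 50 cells at 72 h, and the cluster led by Fabp4 had 0 to 5.84 CPM.

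The muscle isoforms Cox6a2 (chr7:128205435-128206387, minus strand), Cox7a1 (chr7:30184144-30186078, plus strand) and Cox8b (chr7:140898945-140900446, minus strand) belonged to cardiomyocyte-like cells. There Cox6a2 had 4533, 4460, 2384 and 1914 CPM in KO sham, KO 24 h, WT 72 h and KO 72 h (97.8%, 98.0%, 94.6% and 90.5% of Cox6a2 and Cox6a1 UMIs). Cox7a1 had 3356, 3014, 1655 and 1440 CPM (49.4% to 61.5% of Cox7a1 and Cox7a2), and Cox8b had 3077, 2588, 1359 and 1354 CPM (76.7%, 72.4%, 45.2% and 48.2% of Cox8b and Cox8a). Both values at 72 h were below both earlier values for all 3 genes. In WT only the library at 72 h had 50 such cells, so the course over time is seen in KO alone. The cardiomyocyte markers and the depth were also lowest in the KO library at 72 h, as given above with the shares. WT at 72 h and KO at 24 h were close in both, with 6.19% and 6.14% of UMIs from the markers.

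Traces of these isoforms in other classes were set against a list of cardiomyocyte genes, taken as a stand-in for free RNA of cardiomyocytes. In endothelial-like cells Cox6a2 (8.27 to 21.5 CPM) amounted to 45.1 to 56.7 UMIs per 1000 UMIs of that list, in the range of cardiomyocyte-like cells themselves (33.7 to 60.7). Cox7a1 in monocyte/macrophage-like cells was different: 14.7 to 24.6 CPM, or 86.0 to 202 per 1000, against 23.4 to 41.0 in cardiomyocyte-like cells, so that the ranges did not overlap. Within the class it was lowest in all 6 libraries in the cluster numbered 10 (2.30 to 6.51 CPM), and the cluster numbered 6 had 19.6 to 36.9 CPM. Cox6a2 did not keep to the cardiomyocyte-like range in every class. Per 1000 list UMIs it had 0 to 0.773 in smooth muscle-like, 0 to 36.7 in fibroblast-like and 4.16 to 35.8 in monocyte/macrophage-like cells, and 23.5 to 45.5 in neutrophil-like cells. How much of the list in each class is free RNA was not tested, which limits both contrasts.

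**Figure D2:**
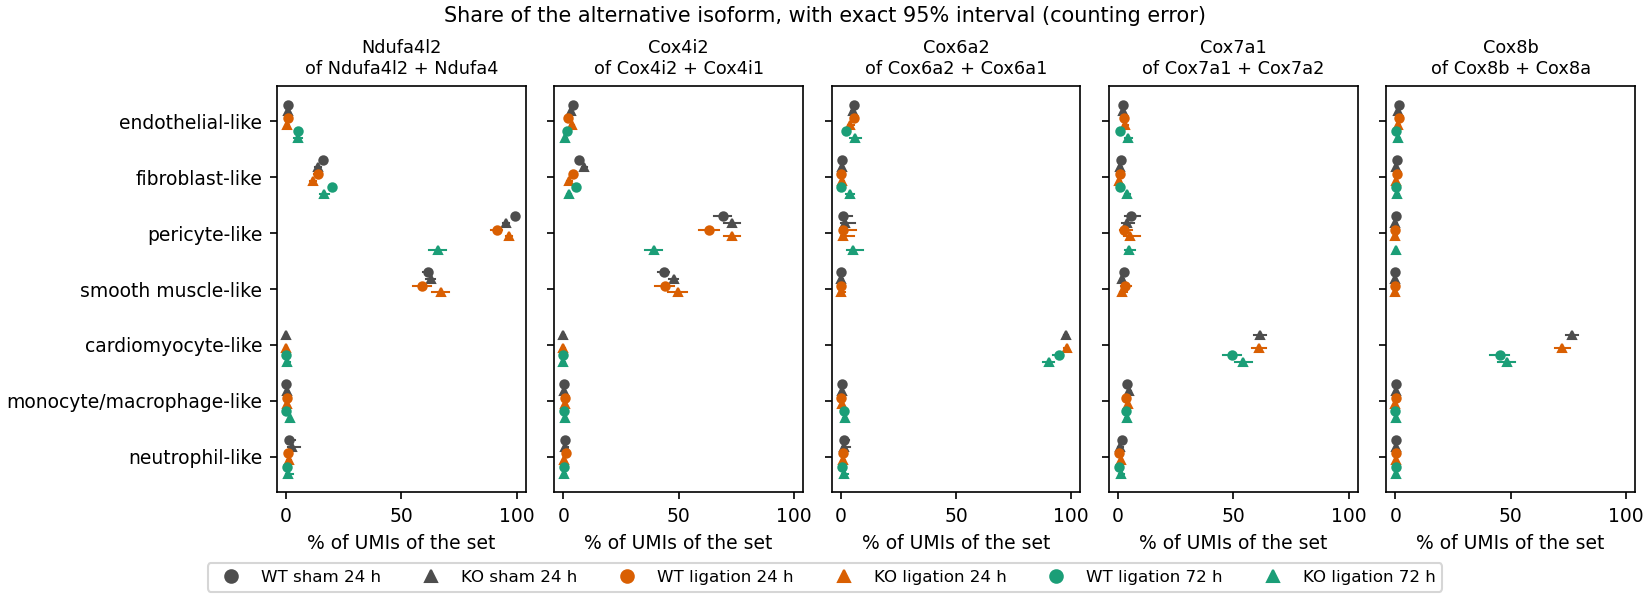
Percentage of an isoform set's UMIs (x axis) taken by the alternative isoform, by class (y axis) and library, with exact 95% intervals for counting error. Ndufa4l2 and Cox4i2 stand out in pericyte-like and smooth muscle-like cells, with the KO library at 72 h lower in pericyte-like cells (65.8% and 39.1%), and Cox6a2, Cox7a1 and Cox8b stand out in cardiomyocyte-like cells.

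The largest change of the members over time was in neutrophil-like cells between 24 h and 72 h after ligation, in both genotypes. The summed share went from 0.775% to 2.20% in WT, a ratio of 2.84 (95% interval 2.80 to 2.88), and from 0.908% to 2.24% in KO, a ratio of 2.47 (2.43 to 2.51). In WT, 79 of 80 members with at least 50 UMIs over the pair were at least 1.5-fold higher and 0 lower, with a median log2 ratio of 1.81. Of all 6515 genes tested, 48.1% were at least 1.5-fold higher and 12.4% lower, and their median log2 ratio was 0.54. In KO, 75 of 79 were higher and 0 lower with a median of 1.496, against 46.9% higher, 10.5% lower and a median of 0.51 over all 7192 genes tested. Relative to the median gene, 70 of 80 in WT and 63 of 79 in KO were still at least 1.5-fold higher, with medians of 1.27 and 0.98. The share of all genes past 1.5-fold after the same centring is not given here. The untested members, 11 in WT and 12 in KO, were too sparse in these cells.

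Core subunits of each complex were also higher at 72 h than at 24 h, though not all stood above sham at 72 h. Ndufs7, an iron-sulfur subunit that carries electrons to the quinone site of complex I, had 88.5, 73.6, 41.6, 55.6, 234 and 217 CPM in WT sham, KO sham, WT 24 h, KO 24 h, WT 72 h and KO 72 h. The values at 72 h were the highest and those at 24 h the lowest, and the ratio of 72 h to 24 h was 5.63 (4.74 to 6.72) in WT and 3.90 (3.302 to 4.600) in KO. Ndufv1, the NADH-binding subunit, had 16.21, 15.99, 9.87, 9.62, 36.9 and 31.5 CPM in the same order. In complex II, Sdhb, its iron-sulfur protein, had 72.7, 49.3, 40.6, 53.1, 118 and 121 CPM. In complex III, Uqcrc2, a core protein, had 25.5, 27.5, 16.8, 24.0, 65.1 and 69.5 CPM. In complex IV, Cox5a had 161, 134, 101, 118, 331 and 332 CPM, and Cox5b 321, 253, 209, 261, 552 and 530 CPM. In complex V, Atp5a1, the alpha subunit of the catalytic head, had 72.7, 73.6, 42.5, 61.9, 171 and 172 CPM. For each of these 7 genes both libraries at 72 h lay above the other 4 and did not overlap with them. Ndufs1, a core subunit of complex I, was an exception. Its 15.2 CPM in KO at 72 h lay below its median of 18.0 CPM over the 6 libraries.

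Members differed in size of change. All 36 measured members of complex I passed 1.5-fold in WT (median log2 1.97) and 34 of 35 in KO (1.68), all 4 of complex II in WT (1.11) and 3 of 4 in KO (0.74), all 8 of complex III in both (1.54 and 1.18), all 12 measured of complex IV in WT (1.56) and 11 of 12 in KO (1.31), and all 17 of complex V in both (1.79 and 1.47). Ndufb5, an accessory subunit of complex I, went from 23.0 to 151 CPM in WT and from 24.9 to 160 in KO, and Atp5g1 from 24.8 to 186 and from 28.5 to 199. These are ratios of 6.57 and 6.40 for Ndufb5 and 7.49 and 6.96 for Atp5g1, and Ndufb5 was chosen here after its values were seen. Ndufaf4, whose promoter is shown above, had 1 UMI in WT at 24 h against 19 at 72 h, and 9 against 6 in KO, too few for the minimum of 50. The smallest changes were in Ndufaf7 (17.2 to 21.5 CPM in WT, 15.9 to 18.5 in KO), an assembly factor of complex I, in Cox8a (ratio 1.55 and 1.48) and, in KO, in Ndufs1, the largest core subunit of complex I (13.2 to 15.2 CPM, 14 UMIs at 72 h).

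**Figure D3:**
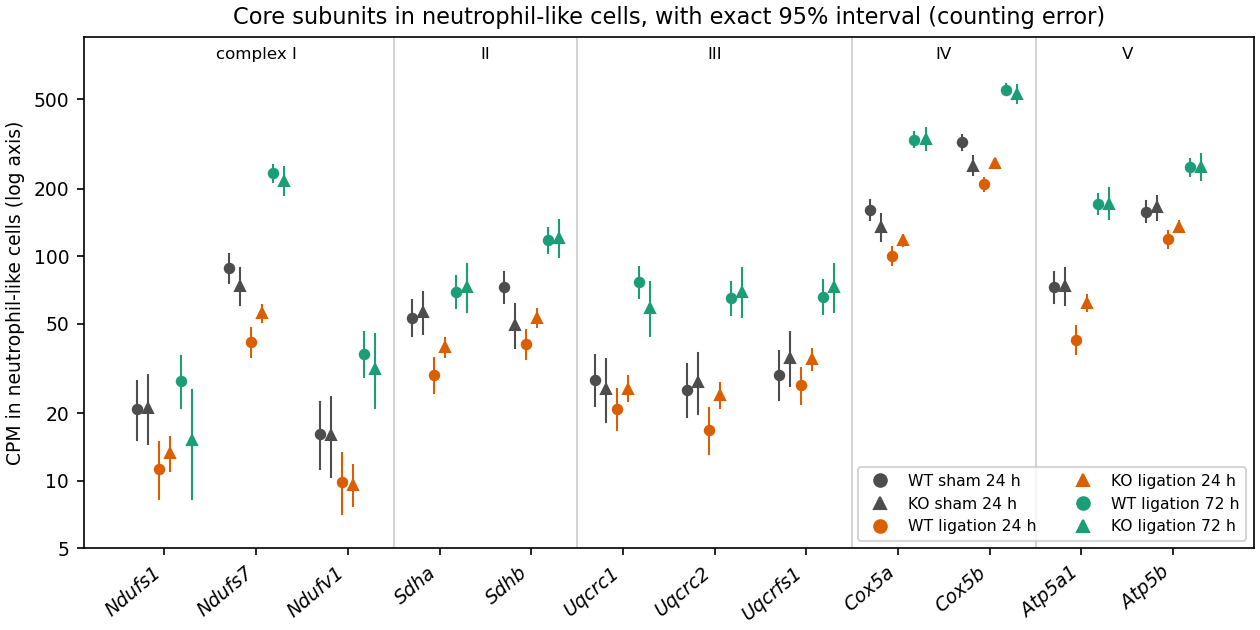
CPM (y axis, log scale) of 12 core subunits in neutrophil-like cells, grouped by complex, 1 point per library with its exact 95% interval for counting error. Points at 72 h after ligation lie above those at 24 h in both genotypes for every gene shown, from 2.09-fold for Atp5b to 5.63-fold for Ndufs7 in WT, with Ndufs1 in KO the smallest difference (1.15-fold).

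The related lists did not all move with the members. Of 13 measured genes of the tricarboxylic acid cycle, which feeds the chain with NADH and succinate, 11 were at least 1.5-fold higher at 72 h than at 24 h in WT (median log2 1.45) and 12 in KO (1.24). Of 18 genes of glycolysis and the hypoxia response, 0 were higher and 10 lower in WT (median -0.65), and 0 higher and 6 lower in KO (-0.26). In WT the mitochondrially encoded subunits went apart from the nuclear ones: 0 of 12 were higher and 5 lower (0.476% to 0.287% of UMIs). In KO they rose as the nuclear ones did, with 7 of 12 higher and 0 lower (0.323% to 0.473%). Of 5 measured regulators of mitochondrial biogenesis, 1 was higher in each genotype. The background for all these lists is that of all genes given above: 48.1% higher and 12.4% lower in WT, and 46.9% and 10.5% in KO.

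The neutrophil-like class changed its makeup over the same interval, and markers of other classes were counted in it. The cluster led by Cstdc4, S100a9 and S100a8 held 58.6% and 41.0% of neutrophil-like cells at 24 h in WT and KO but 1.14% and 0.424% at 72 h, while the cluster led by Mmp9, Csf3r and Il1b went from 7.64% and 19.5% to 47.5% and 56.1%. Within that second cluster the members' share went from 1.15% to 2.68% in WT and from 1.13% to 2.60% in KO, with 70 of 75 and 68 of 74 members at least 1.5-fold higher, against 37% and 33.2% of all genes. In all 7 combinations of cluster and genotype with 50 cells at both times the share was higher at 72 h, by 1.64- to 2.72-fold. Markers of monocyte/macrophage-like cells summed to 3320 CPM in WT and 4320 in KO neutrophil-like cells at 72 h, below the 7954 and 9563 CPM at 24 h, with 1 of 21 markers at 0 in each library at 72 h. That lower sum came from Cd14 (3934 to 811.6 CPM in WT, 3213 to 707.9 in KO) and Chil3 (2135 to 96.2 and 4535 to 147.7). Without these genes the other 19 summed to 1885 CPM in WT at 24 h, 2412 in WT at 72 h, 1815 in KO at 24 h and 3464 in KO at 72 h, against 33046 and 28221 in monocyte/macrophage-like cells at 72 h. Of the 21 markers, 4 of 13 measured were at least 1.5-fold higher at 72 h and 5 lower in WT (all genes 48.1% and 12.4%). In KO 10 of 17 were higher and 3 lower (all genes 46.9% and 10.5%). Lyz2, the lysozyme of myeloid cells, went from 454 to 1044 CPM in WT and from 665 to 1569 in KO, and C1qb, a complement gene of macrophages, from 3.21 to 17.7 and from 13.1 to 117. Their part in the result was not tested. The 10 endothelial markers summed to 44.5 to 936 CPM and the 10 fibroblast markers to 493 to 923 CPM over the 6 libraries, and the 12 cardiomyocyte markers to 17.7 to 74.9 CPM. Median UMIs per neutrophil-like cell were 3164 and 2521 at 24 h and 2140 and 1940.5 at 72 h in WT and KO.

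Before that, from sham to 24 h after ligation, the members in neutrophil-like cells were lower in WT. There 43 of 78 measured members were at least 1.5-fold lower and 0 higher (median log2 -0.60), against 24.3% lower and 10.4% higher of all genes (median -0.22). In KO 7 of 79 were lower and 0 higher (median -0.15), against 15.9% lower and 6.65% higher of all genes (-0.19), so the members' share was below that of all genes. Relative to the median gene the count in WT was 18 of 78 lower, without a share of all genes centred the same way to set beside it. The makeup of the class changed over this interval too: the cluster led by Cstdc4 went from 3.37% to 58.6% of neutrophil-like cells in WT and from 7.56% to 41.0% in KO, and the cluster led by Ccrl2 and Gadd45b from 43.3% to 8.90% and from 37.8% to 8.80%. Within the 3 clusters with 50 cells at both times, the members' share in WT went from 1.33% to 1.148% (led by Mmp9), from 0.764% to 0.688% (the cluster numbered 7) and from 1.071% to 0.904% (led by Ccrl2). In KO the same clusters went from 1.17% to 1.13%, from 0.759% to 0.817% and from 0.993% to 0.960%, and the cluster led by Cstdc4 from 0.955% to 0.888%. The differences within clusters in WT were smaller than that of the whole class (1.06% to 0.775%), and the part of the makeup was not tested. Glycolysis and hypoxia genes took the opposite direction, with 12 of 18 at least 1.5-fold higher in WT and 15 of 18 in KO. Ndufa13, a complex I subunit, had 230 CPM in WT sham and 92.5 in WT at 24 h, and 181 and 139 in KO. WT and KO were compared with their own sham libraries, and the difference between them was not tested.

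In the other 3 main classes the members moved less. The makeup of each changed with time, so these ratios compare different clusters in part. Fibroblast-like cells at 72 h were mostly in 1 cluster led by Col1a1 and Col1a2 (64.8% in WT, 96.4% in KO), which held 0.222% to 2.17% of them before, and no fibroblast-like cluster had 50 cells at both 24 h and 72 h. In monocyte/macrophage-like cells 3 clusters reached 50 cells only at 72 h. In the 3 with 50 cells at both times, those numbered 4, 6 and 10, the members' share went from 2.43% to 2.74%, 2.19% to 2.43% and 2.71% to 2.81% in WT and from 2.74% to 2.78%, 2.765% to 2.38% and 2.771% to 2.768% in KO. In endothelial-like cells the cluster led by Fabp4 went from 2.37% to 2.32% in WT and from 2.54% to 2.39% in KO, and the cluster led by Ctla2a from 2.19% to 3.02% and from 2.53% to 3.02%. From 24 h to 72 h in WT, 9 of 86 members were at least 1.5-fold higher and 1 lower in endothelial-like cells (all genes 10.5% and 21.4%), 15 of 87 higher and 1 lower in fibroblast-like cells (13% and 31.9%), and 15 of 89 higher and 1 lower in monocyte/macrophage-like cells (21.8% and 16.9%). The median log2 ratios of members were 0.30, 0.31 and 0.33 against -0.12, -0.26 and 0.04 over all genes. Relative to the median gene the counts past 1.5-fold were 19, 44 and 5. The shares of all genes above are not centred, so these counts have no like background. In KO the same interval gave 4 higher and 2 lower of 85 in endothelial-like cells (10.6% and 20.4%), 3 and 1 of 87 in fibroblast-like cells (12.3% and 19.4%) and 5 and 0 of 90 in monocyte/macrophage-like cells (18.4% and 7.2%).

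The member lower in WT was Cox6a2 in endothelial-like cells (8.27 CPM at 72 h, 21.5 at 24 h), Ndufaf4 in fibroblast-like cells (45.8 and 102.3) and Cox4i2 in monocyte/macrophage-like cells (2.25 and 3.69). The cardiomyocyte list used above for free RNA was also lower in WT endothelial-like cells, with 160.9 CPM at 72 h and 379.3 at 24 h. In KO the members past 1.5-fold in endothelial-like cells were Ndufs1, Atp5e, Atp5mpl and Cox7b, higher by 1.51- to 1.597-fold, and Cox4i2 (0.291) and Ndufaf3 (0.651), lower. In KO fibroblast-like cells they were Ndufa3 (1.54), Ndufs8 (1.501), Cox7a1 (7.59) and, lower, Ndufaf4 (0.503), and in KO monocyte/macrophage-like cells Cox6b2 (2.02), Cox6a2 (3.201), Ndufa4l2 (5.80), Ndufaf7 (1.71) and Cox7a2l (1.62). The ratio of Ndufa4l2 rested on a proliferating cluster that held 60 of its 69 UMIs at 72 h, 27 of the 69 in 1 cell barcode. Without that cluster Ndufa4l2 had 1.28 CPM at 72 h and 1.44 at 24 h, so the direction turned. For the muscle isoforms, the cardiomyocyte list went from 198.9 CPM at 24 h to 314.7 at 72 h in KO fibroblast-like cells. In KO monocyte/macrophage-like cells the list went from 153.3 to 150.1 CPM. The part of free RNA in these ratios was not tested.

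Ndufs8, an iron-sulfur subunit of complex I, had 128, 109, 107, 130, 209 and 175 CPM in monocyte/macrophage-like cells in WT sham, KO sham, WT 24 h, KO 24 h, WT 72 h and KO 72 h. Cox7a2l, known from other work as a factor for supercomplexes of complexes III and IV, had 134, 120, 91.9, 126, 167 and 203 CPM there. Its function in the strains used was not examined. For both genes the 2 libraries at 72 h were the highest. In endothelial-like cells Cox7a2l was lowest at 24 h in both genotypes, with 315 and 293 CPM in sham, 180 and 228 at 24 h and 274 and 300 at 72 h, WT before KO in each pair.

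**Figure D4:**
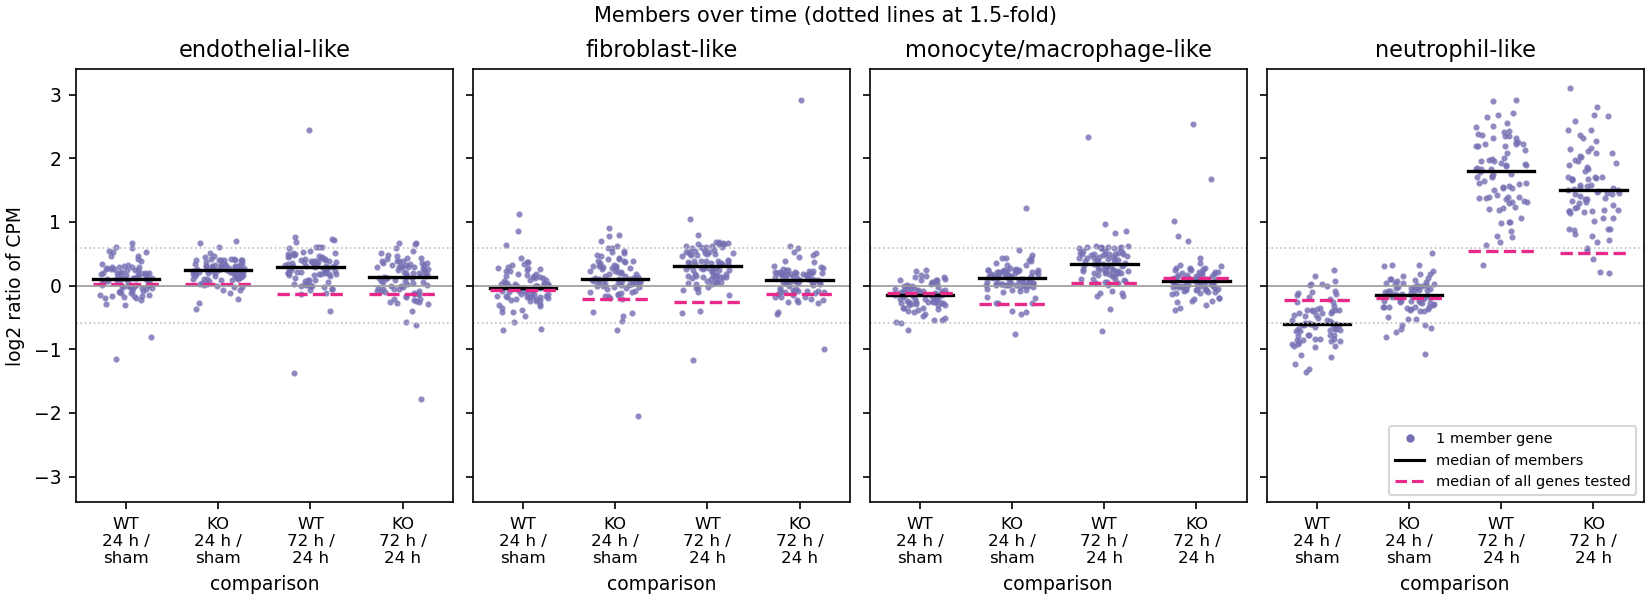
Log2 ratio of CPM (y axis) of each measured member in the 4 main classes, for ligation at 24 h against sham and for 72 h against 24 h, in WT and KO; bars are the median of members, dashed bars the median of all genes tested. The members' median stands furthest from that of all genes in neutrophil-like cells at 72 h against 24 h (1.81 against 0.54 in WT, 1.496 against 0.51 in KO).

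From sham to 24 h, WT had 3 higher and 2 lower of 90 in endothelial-like cells (all genes 10.2% and 8.12%), 3 and 2 of 87 in fibroblast-like cells (12.3% and 15.7%) and 0 and 2 of 87 in monocyte/macrophage-like cells (5.97% and 12.4%). KO had 3 and 0 of 90 (9.96% and 7.42%), 7 and 2 of 87 (11.3% and 26.3%) and 1 and 1 of 88 (4.06% and 24.9%). In WT the members past 1.5-fold were Ndufaf1, Ndufa12 and Atp5g1, higher, and Cox4i2 and Cox7a2l, lower, in endothelial-like cells (ratios 1.59, 1.52, 1.51, 0.449 and 0.571), Ndufaf5, Ndufaf4 and Ndufa12, higher, and Cox4i2 and Ndufa13, lower, in fibroblast-like cells (1.82, 2.18, 1.55, 0.619 and 0.621), and Ndufaf5 and Ndufaf7, lower, in monocyte/macrophage-like cells (0.665 and 0.617). In KO they included Ndufaf6, Cox7a1 and Atp5g1, higher in endothelial-like cells (1.64, 1.53 and 1.59), Ndufaf1 and Cox4i2, lower in fibroblast-like cells (0.615 and 0.241), and Cox4i2, higher, and Ndufaf7, lower, in monocyte/macrophage-like cells (2.33 and 0.590). Atp5g1 in endothelial-like cells thus passed 1.5-fold in both genotypes, at 223 and 219 CPM in sham and 336 and 349 at 24 h in WT and KO. Ndufaf4 had 47.0 and 70.4 CPM in sham, 102.3 and 102.9 at 24 h and 45.8 and 51.8 at 72 h in WT and KO fibroblast-like cells. The 2 values at 24 h lay above the other 4. Ndufa12, an accessory subunit of complex I, had 126 and 132 CPM in sham, 196 and 214 at 24 h and 199 and 190 at 72 h. Cox5a had 229, 241, 311, 416, 489 and 477 CPM in fibroblast-like cells in the library order above.

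Few members passed 1.5-fold between KO and WT. The makeup of the classes differed between the genotypes too, so ratios of KO to WT compare different clusters in part. In sham, 0 of 90 members passed 1.5-fold in endothelial-like cells, 0 of 87 in fibroblast-like, 0 of 87 in monocyte/macrophage-like and 1 of 76 in neutrophil-like cells, where 6.3%, 8.26%, 7.01% and 8.92% of all genes did. The summed share in KO was 1.002 (0.997 to 1.008), 1.002 (0.993 to 1.011), 0.946 (0.941 to 0.952) and 0.914 (0.896 to 0.933) times that in WT. The member past 1.5-fold was Ndufaf7, with 19.2 CPM in KO and 32.4 in WT neutrophil-like cells.

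At 24 h after ligation the members in KO were a little above WT in all 4 classes. The summed share was 1.11 (1.097 to 1.122) times that of WT in endothelial-like, 1.17 (1.15 to 1.18) in fibroblast-like, 1.15 (1.15 to 1.16) in monocyte/macrophage-like and 1.17 (1.16 to 1.19) in neutrophil-like cells. The ratio was above 1 for 77 of 88, 76 of 87, 82 of 88 and 70 of 80 measured members, with medians of 0.14, 0.19, 0.21 and 0.25 on the log2 scale against -0.06, -0.11, -0.12 and 0.05 over all genes. Only 2 of 88, 2 of 87, 2 of 88 and 5 of 80 passed 1.5-fold, against 10.8%, 14.8%, 10.8% and 15.5% of all genes. In neutrophil-like cells these were Atp5c1, the gamma subunit of complex V (73.0 CPM in KO, 45.9 in WT), Ndufab1, the acyl carrier protein of complex I (22.4 and 13.3), Ndufaf3 (14.2 and 8.96) and Atp5d (58.5 and 38.8), which were higher in KO, and Ndufa11 (8.07 and 12.2), which was lower. In endothelial-like cells Ndufs1 was lower in KO (26.6 CPM against 40.8, from 59 and 127 UMIs) and Cox4i2 higher (22.1 against 10.9). In fibroblast-like cells Ndufaf1 (11.4 against 17.1) and Cox4i2 (11.4 against 20.2) were lower, and in monocyte/macrophage-like cells Cox4i2 (5.80 against 3.69) and Cox7a1 (24.6 against 14.7) were higher. The mitochondrially encoded subunits were lower in KO in fibroblast-like (ratio 0.864), monocyte/macrophage-like (0.867) and neutrophil-like cells (0.677) but higher in endothelial-like cells (1.14). Neutrophil-like cells also differed in makeup. The cluster led by Cstdc4 held 58.6% of them in WT and 41.0% in KO, and that led by Mmp9 7.64% and 19.5%. Within the cluster led by Mmp9 the members' share was 1.13% in KO and 1.148% in WT. It was higher in KO in the clusters led by Cstdc4 (0.888% against 0.758%) and Ccrl2 (0.960% against 0.904%). The clusters numbered 7 (0.817% against 0.688%) and 16 were also higher in KO. The part of the makeup was not tested. With 1 library per group, genotype and library preparation cannot be told apart.

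At 72 h the summed ratios of KO to WT were 1.01, 0.971, 0.981 and 1.02 in endothelial-like, fibroblast-like, monocyte/macrophage-like and neutrophil-like cells, and 1 of 83, 2 of 87, 3 of 90 and 2 of 80 members passed 1.5-fold (all genes 17.1%, 17.3%, 10.2% and 9.9%). In endothelial-like cells it was Ndufaf7 (16.1 CPM in KO, 24.2 in WT) and in neutrophil-like cells Ndufs1 (15.2 and 27.8, from 14 and 58 UMIs) and Ndufa9 (14.1 and 24.4). In monocyte/macrophage-like cells Cox4i2 (5.80 and 2.25), Cox6b2 (8.57 and 4.61) and Ndufa4l2 were higher in KO. Of the Cox4i2 UMIs, 32 of 48 in KO and 12 of 60 in WT came from the proliferating cluster described below, and without it the levels were 2.28 and 2.14 CPM. Cox4i2 was lower in KO fibroblast-like cells at 72 h, 13.6 CPM against 31.0 (ratio 0.437, 0.275 to 0.675), and had been 11.4 against 20.2 at 24 h and 47.2 against 32.7 in sham, so its direction was not the same at the 3 conditions. In sham most of it was in 1 small cluster led by Mgp, Dcn and Prg4, with 184.5 CPM in WT (50 cells) and 172.8 in KO (113 cells) and under 50 cells in the libraries after ligation, while the other fibroblast-like clusters had 3.32 to 28.2 CPM. Cox7a1 was 5.75-fold higher in KO fibroblast-like cells (21.6 against 3.76 CPM, from 43 and 12 UMIs), where UMIs of the cardiomyocyte list were also higher (0.0315% against 0.0158%). Its part in the result was not tested. Ndufa4l2 was 17.1-fold higher in KO monocyte/macrophage-like cells, from 69 and 13 UMIs. Of the 69 UMIs, 60 came from this proliferating cluster, led by histone genes and Stmn1, and 27 from 1 cell barcode. Without that cluster the level was 1.28 CPM in KO and 0.492 in WT, from 9 and 11 UMIs. No member passed 1.5-fold the same way at all 3 conditions in any of the 4 classes.

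**Figure D5:**
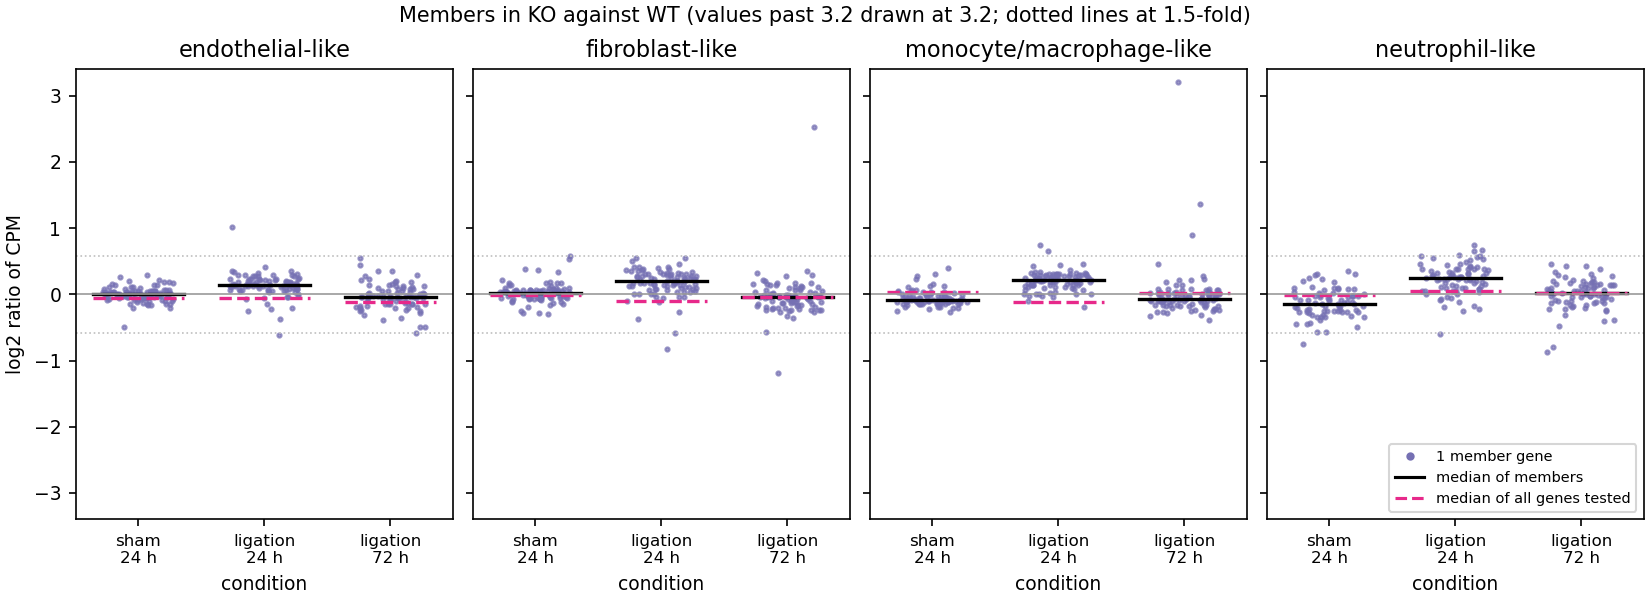
Log2 ratio of CPM in KO against WT (y axis) of each measured member in the 4 main classes and 3 conditions; bars are the median of members, dashed bars the median of all genes tested, and the 1 value past 3.2 is drawn at 3.2. Most members lie within the dotted lines at 1.5-fold, and at 24 h after ligation the members' medians (0.14 to 0.25) lie above those of all genes.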

How the data were processed

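Per gene and cell, the authors deposited counts of UMIs, whole numbers made with Cell Ranger 6.0.0 and genome build mm10 per the submitters' processing notes; further filters are not given in the sources used here. Each group is 1 pooled library. Cells were required to have at least 200 genes and at most 20% mitochondrial UMIs. Scrublet was run for doublets in scanpy 1.11.5; its automatic threshold marked 0 to 50 cells per library, so the top scores were removed at 0.8% per 1000 cells. The 2000 most variable genes, without the members, mitochondrial, ribosomal and hemoglobin genes and Trpm4, gave 30 components, 20 neighbours and Leiden clusters at resolution 1. Clusters took the class with the largest share of its markers at least 2-fold over the median cluster, with 3 or more such markers; no name was given if the top 10 genes included more markers of a different class (the case in all 4 unnamed of 36) or if a shallow cluster had none of its own there.

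Counts were summed per class and library with at least 50 cells. CPM, ratios with the exact conditional interval of a pair of Poisson counts (95%) and Clopper-Pearson shares were computed; UMIs cover counting error only. A gene needed 50 UMIs over a pair of libraries; a count of 0 was set to 3 for ratios. Members and gene lists were chosen with earlier results of these data known. Named genes were the isoform sets, core subunits (1 of which is not reported here), the members next to the UMI minimum and, per comparison and class, the 3 highest and 3 lowest ratios among members with at least 0.25 of the CPM of their highest class; all others named, such as Ndufa5, Ndufb5, Ndufa11, Atp5c1 and Ndufab1, were chosen after their values were seen. Reads of overlapping or near-identical genes (such as Atp5g1, Atp5g2 and Atp5g3, or processed pseudogenes) may be split. Versions were Python 3.11.15, scipy 1.17.1 and leidenalg 0.10.2. Class differences were tested by an exact two-sided sign-flip permutation over libraries. The 24 h ligation libraries serve in both time comparisons and in the genotype comparison, so these comparisons share libraries. The ratio code was tested on simulated data. Alternatives changed the clustering resolution, the mitochondrial limit, doublet removal, the UMI minima, the total and the centring, and their effect is given at the end.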

Additional observations from a re-analysis of the deposited data

Results flagged for a closer look

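Some summed levels moved in opposite directions in the 2 genotypes. The difference was not tested, since each genotype has 1 library per condition. From sham to 24 h after ligation the 91 members went to 0.962 of their level in WT and 1.122 in KO fibroblast-like cells, and to 0.9237 in WT and 1.126 in KO monocyte/macrophage-like cells. From 24 h to 72 h the mitochondrially encoded subunits went to 0.8189 in WT and 1.111 in KO monocyte/macrophage-like cells, and to 0.603 in WT and 1.465 in KO neutrophil-like cells. The KO library at 72 h is the shallow one.

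Signal was also present in data that the comparisons leave out. Ndufb1-ps, which carries a pseudogene symbol, had 121963 UMIs over the 6 libraries and a median of 729.2 CPM in monocyte/macrophage-like cells, with 1566 to 3005 CPM in cardiomyocyte-like cells and 283 to 517 CPM in endothelial-like cells. Barcodes over 20% mitochondrial UMIs numbered up to 420 in a library. The members made up 2.47% to 3.19% of their UMIs from other than mitochondrial genes, against 2.13% to 2.94% in the kept cells.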

How the results depend on the processing

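Of 312 alternatives computed, 233 kept the direction and the side of the threshold, or a count within 1.5 times. The count of members at least 1.5-fold higher in neutrophil-like cells at 72 h than at 24 h ranged from 70 to 86 in WT and from 63 to 86 in KO, with median log2 ratios of 1.27 to 1.81 and 0.98 to 1.52. The other counts are small and moved more often, and the cause was not tested except where fewer or sparser genes entered by construction. Class differences are mean log2 ratios over libraries with adjusted exact permutation p, and counts are members past 1.5-fold in either direction, main value first. No paired analysis was possible because each group is 1 library with no replicate number; only classes were paired, within libraries.

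At a Leiden resolution of 0.5, endothelial-like against fibroblast-like cells reversed from 0.02454 to -0.05526 and endothelial-like against monocyte/macrophage-like cells went from -0.09364 to -0.1725 (exact permutation p = 0.0375). Counts in endothelial-like cells went from 1 to 4 (KO to WT, 72 h), 5 to 3 (24 h to sham, WT) and 10 to 2 (72 h to 24 h, WT), and in fibroblast-like cells from 4 to 7 (72 h to 24 h, KO). At a resolution of 2 the second difference was -0.1149 (exact permutation p = 0.0375), and counts went from 1 to 3 (KO to WT, sham, neutrophil-like), 1 to 5 (72 h, endothelial-like) and 4 to 7 (72 h to 24 h, KO, fibroblast-like). With at most 10% mitochondrial UMIs the first difference was 0.06605 (exact permutation p = 0.0375), and KO to WT counts went from 0 to 2 in endothelial-like and 1 to 2 in neutrophil-like cells in sham, and in endothelial-like cells from 2 to 1 at 24 h and 1 to 0 at 72 h. Without doublet removal the first difference reversed to -0.001358, and KO to WT counts went from 0 to 1 (fibroblast-like) and 1 to 2 (neutrophil-like) in sham, from 2 to 1 in endothelial-like, fibroblast-like and monocyte/macrophage-like cells at 24 h and from 2 to 1 in fibroblast-like cells at 72 h. In cells with at least 1500 UMIs the second difference was -0.09695 (exact permutation p = 0.0375), and counts went from 2 to 1 (KO to WT, 24 h, endothelial-like), 1 to 2 and 2 to 1 (72 h, endothelial-like and fibroblast-like) and 4 to 2 (72 h to 24 h, KO, fibroblast-like). Taking mitochondrially encoded and hemoglobin UMIs out of the total gave 0.1001 for the first difference (exact permutation p = 0.0375) and 5 to 3 for 24 h to sham in WT endothelial-like cells.

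With only 1 UMI asked for in both libraries, KO to WT counts in sham were 1, 2, 4 and 4 in endothelial-like, fibroblast-like, monocyte/macrophage-like and neutrophil-like cells (0, 0, 0 and 1 before), 14 in neutrophil-like cells at 24 h (5), and 7, 4 and 8 in endothelial-like, fibroblast-like and neutrophil-like cells at 72 h (1, 2 and 2). Counts for 24 h to sham became 8 and 4 in WT fibroblast-like and monocyte/macrophage-like cells (5 and 2) and 4 and 13 in KO monocyte/macrophage-like and neutrophil-like cells (2 and 7), and 7 for 72 h to 24 h in KO fibroblast-like cells (4). With 200 UMIs asked for over the pair, KO to WT counts were 0 in neutrophil-like cells in sham (1), 0, 0, 1 and 3 in the 4 classes at 24 h (2, 2, 2 and 5) and 0 in all 4 at 72 h (1, 2, 3 and 2). Counts for 24 h to sham became 3 and 1 in WT fibroblast-like and monocyte/macrophage-like cells (5 and 2) and 1, 1 and 4 in KO endothelial-like, monocyte/macrophage-like and neutrophil-like cells (3, 2 and 7), and 3 and 2 for 72 h to 24 h in KO endothelial-like and monocyte/macrophage-like cells (6 and 5).

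Centred on the median gene, KO to WT counts were 1 in fibroblast-like cells in sham (0) and 1 and 4 in endothelial-like and fibroblast-like cells at 24 h (2 and 2). Shares of all genes after this centring are not given here. For 24 h to sham they were 3, 0 and 18 in WT endothelial-like, monocyte/macrophage-like and neutrophil-like cells (5, 2 and 43) and 20, 11 and 3 in KO fibroblast-like, monocyte/macrophage-like and neutrophil-like cells (9, 2 and 7). For 72 h to 24 h they were 19, 44 and 5 in WT endothelial-like, fibroblast-like and monocyte/macrophage-like cells (10, 16 and 16) and 7 in KO fibroblast-like cells (4).

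Leaving libraries out of the test between classes was chosen after seeing the data, as were the values within single clusters. Without the KO library at 72 h, the differences from neutrophil-like cells were 1.128 (endothelial-like), 1.115 (fibroblast-like) and 1.242 (monocyte/macrophage-like), and fibroblast-like against monocyte/macrophage-like cells gave -0.1271, each with an exact permutation p = 0.075. Without both libraries at 72 h the same values were 1.32, 1.311, 1.455 and -0.1441 (exact permutation p = 0.15). With 5 or 4 libraries no p can reach 0.05.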
